A study of Mus musculus with 2 samples.

Results

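Osteoblast lineage cells of the mouse periodontal ligament were picked out of a single-cell RNA sequencing series by their transcripts, and 191 of 1760 filtered cells met the rule. Of these, 152 came from 1412 cells of the OTM (orthodontic tooth movement) library and 39 from 348 cells of the Control library. A member had at least 1% of its UMIs (unique molecular identifiers, each standing for 1 captured RNA molecule) on Col1a1, Col1a2 and Col3a1 together. It also had at least 0.2% on Bglap, Bglap2, Ibsp and Sp7 together, at most 2 UMIs of Pecam1 and Cdh5, fewer than 10 UMIs of the 5 mural genes Rgs5, Notch3, Kcnj8, Myh11 and Higd1b, and under 1% on S100a8 and S100a9. The cells were thus chosen by the measured shares of these transcripts, and the levels of those transcripts below are a description.

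The OTM library held tissue of the left upper first molar, which had been drawn mesially with a 10 g force for 6 days, and the Control library held tissue of the unloaded right side. Both came from male C57BL/6J mice aged 8 weeks, and for each library the tissue from root surfaces and sockets of 5 mice was pooled before digestion with collagenase and then trypsin. With 1 library per group there was no replicate, so every difference below is between these 2 libraries, no p-value was computed, and the intervals cover counting error only. Tissue from roots and sockets holds cells of both the bone and the root surface, and the labels do not separate them.

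Osteoblasts build bone by secreting type I collagen and then a set of acidic and vitamin K-dependent proteins that control how mineral forms in it. Progenitors first express Runx2 and Sp7, then alkaline phosphatase and bone sialoprotein, and late cells express osteocalcin, while cells that become buried in bone switch on Dmp1, Phex and Sost. In the periodontal ligament the lineage lines the socket wall and also sets the balance of RANKL and osteoprotegerin that osteoclast precursors read, and cementoblasts on the root express many of the same matrix genes.

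The label was set beside 17 osteoblast lineage markers; the rule used 5 of them, so those 5 are no check on it. All 17 were detected in the members of both libraries, Phex in Control on 1 UMI. Detection alone did not set members apart. In the collagen-rich cells that missed only the osteogenic 0.2%, 0 of the 17 were at 0 UMIs in OTM and 1 in Control. The 12 markers outside the rule summed to 20554 CPM (UMIs per 1000000 UMIs of the summed cells) in OTM members and 3758 CPM in the other collagen-rich OTM cells, which met every part of the rule except the osteogenic 0.2% (460 cells). In Control they summed to 5459 CPM in members and 1671 CPM in the 80 other collagen-rich cells. Spp1 made up much of these sums, and the 11 markers without it summed to 3101 CPM in members and 1751 CPM in other cells of OTM, and to 2915 CPM in members and 1664 CPM in other cells of Control. Of the 12, 11 were higher in members in OTM and 8 in Control. Alpl was the exception in OTM, and Alpl, Dlx5, Phex and Pth1r were the exceptions in Control. Runx2, the transcription factor that starts the lineage and no part of the rule, was found after each cell was thinned to 3000 UMIs in 76.2% of OTM members and 76.5% of Control members (96.7% and 84.6% without thinning), against 14.8% of OTM neutrophils and 10.5% of Control neutrophils. It separated members little from other collagen-rich cells, with 840 CPM in members and 629 CPM in other cells of OTM, and 715 CPM in members and 569 CPM in other cells of Control. Alpl ran the other way, with 300 CPM in members and 553 CPM in other cells of OTM, and 253 CPM in members and 307 CPM in other cells of Control. Defining markers of leukocytes and vessels were near 0: the 10 neutrophil markers summed to 18.7 CPM in OTM members and 47.8 CPM in Control members, the 8 endothelial markers to 14.5 CPM in OTM members and 12 CPM in Control members, and the 11 macrophage markers to 28.5 CPM in OTM members and 17.9 CPM in Control members. The rule itself limited S100a8, S100a9, Pecam1 and Cdh5, which are in these lists, so low neutrophil and endothelial sums were in part set by it. Other collagen-rich cells were also low, with neutrophil sums of 37.8 CPM in OTM and 43.1 CPM in Control. Their endothelial sums were 15.6 CPM in OTM and 15.2 CPM in Control.

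Several members carried transcripts of other cells. The 11 epithelial and ameloblast markers summed to 648 CPM in OTM members and 44.8 CPM in Control members, with 3 and 6 of the 11 at 0. The 6 erythroid markers summed to 2536 CPM in OTM members and 118 CPM in Control members. In OTM, 2 members had at least 0.2% epithelial UMIs, 1 had at least 0.5% myeloid UMIs and 2 had at least 0.1% haemoglobin UMIs; in Control, 4 members passed the haemoglobin limit. A single OTM cell held 99.7% of the Hbb-bt UMIs, 78.4% of the Krt14 UMIs came from 1 OTM cell, and 97.1% of the Cd74 UMIs from 1 OTM cell. Genes of these kinds were therefore not read as osteoblast lineage results. The 12 periodontal ligament fibroblast markers summed to 17116 CPM in OTM members and 13280 CPM in Control members, and 5 markers of Pcp4 and Wif1 stroma to 1483 CPM in OTM members and 3148 CPM in Control members. The 8 osteoclast markers summed to 651 CPM in OTM members and 718 CPM in Control members, mostly Ctsk, with Calcr at 0 in OTM and 5 of the 8 at 0 in Control. The remaining lists summed to 1686 CPM in OTM and 1837 CPM in Control for odontoblasts and pulp, 184 CPM in OTM and 102 CPM in Control for mural cells, and under 50 CPM in both libraries for lymphocytes, Schwann cells and chondrocytes. The part of other cells in the differences below was not tested.

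Members made up 10.8% of filtered cells in OTM (152 of 1412, 95% Clopper-Pearson interval 9.20% to 12.5%) and 11.2% in Control (39 of 348, 8.09% to 15%). The difference was -0.44 percentage points, with an interval of -4.55 to 3.12. Among collagen-rich cells alone, members were 24.8% in OTM (152 of 612, 21.5% to 28.5%) and 32.8% in Control (39 of 119, 24.4% to 42.0%), a difference of -7.94 points with an interval of -17.7 to 1.14. Both intervals include 0. The osteogenic share of a member's UMIs had a median of 1.00% in OTM (range 0.202% to 11.4%) and 0.682% in Control (range 0.231% to 8.58%). Just outside the threshold lay cells with 0.199% in OTM and 0.198% in Control, and 15 OTM members and 3 Control members lay under 0.3%. No neutrophil reached the threshold (0 of 181 in OTM and 0 of 41 in Control), and the highest values were 0.120% and 0.0586%. The other parts of the rule left out 6 OTM cells (4 with vessel transcripts and 2 low in collagen) and 10 Control cells (4 and 6) that had passed the osteogenic threshold.

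**Figure D1:**
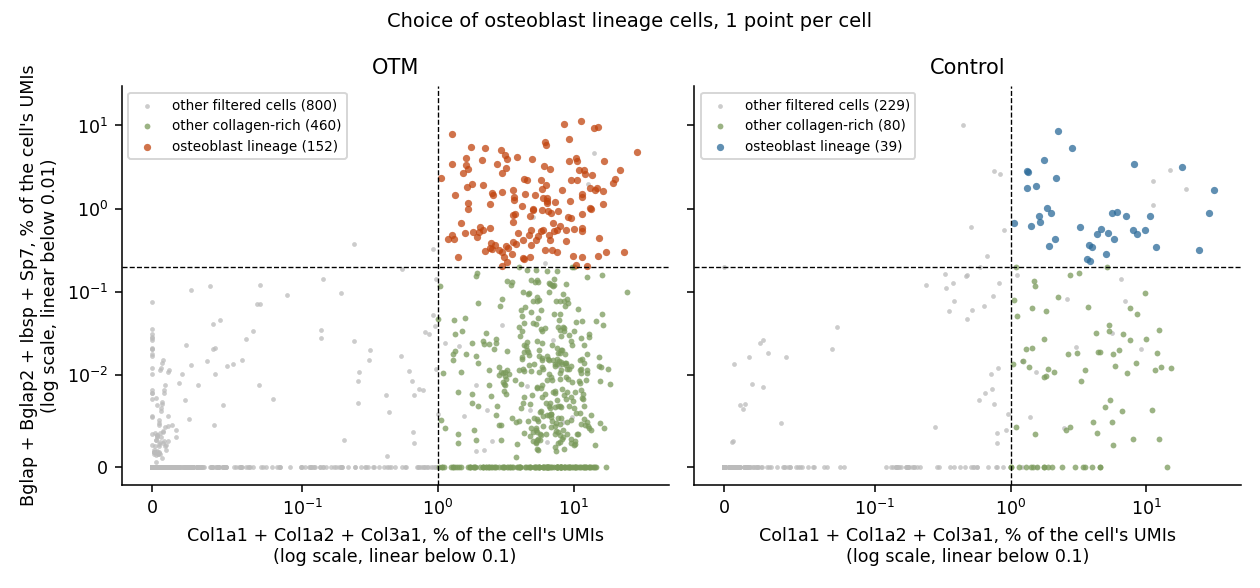
Each point is 1 filtered cell, with the collagen share of its UMIs on the horizontal axis and the osteogenic share on the vertical axis (percent, log scales that turn linear near 0), OTM on the left and Control on the right. The dashed lines are the 1% and 0.2% thresholds; the 152 OTM members and 39 Control members spread from just above 0.2% to 11.4% and 8.58%.

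OTM members were sequenced more deeply than Control members: the median was 21689 UMIs per cell in OTM and 15340 in Control, and the summed totals were 4426974 and 668978 UMIs. No cell barcode was shared between the libraries. A sum of 3 UMIs corresponds to 0.678 CPM in OTM and 4.48 CPM in Control, and this unequal floor means that a gene of low level can be called higher in OTM more easily than lower.

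Of 8659 genes that reached 20 UMIs in either library's members, 809 (9.34%) were at least 2-fold higher in OTM members than in Control members and 174 (2.01%) at least 2-fold lower, and the median log2 ratio was 0.21. These shares over all genes stand as the reference for each list count below, and a count near them is not a result about its list. When the genes were instead required to reach 30 CPM in the higher library, which both libraries can resolve, 251 of 5281 (4.75%) were higher and 165 (3.12%) lower, with a median of 0.03. In the other collagen-rich cells 914 of 11228 genes (8.14%) were past 2-fold on the OTM side and 577 (5.14%) past 2-fold on the Control side. The main matrix transcripts stood close to level, whereas Mmp13, Timp1, Sfrp4 and Spp1 were far above Control, and Wif1, Omd, Thbs4 and Smpd3 were below it.

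**Figure D2:**
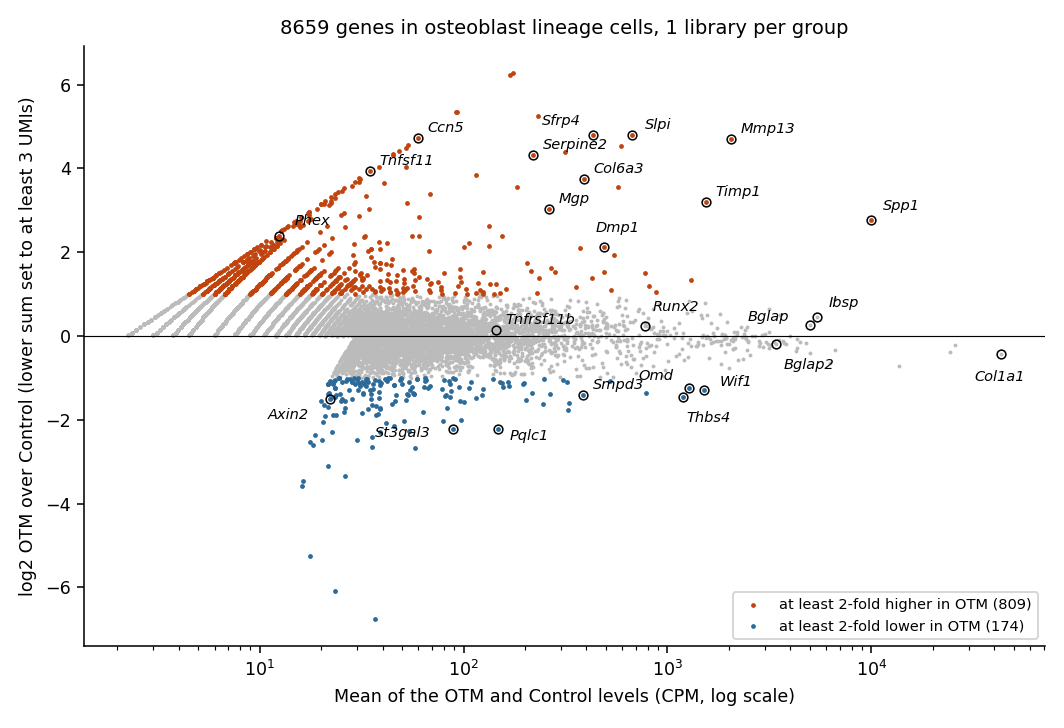
Each point is 1 of 8659 genes, with the mean of its OTM and Control levels in osteoblast lineage cells on the horizontal axis (CPM, log scale) and the log2 ratio of OTM over Control on the vertical axis; coloured points are at least 2-fold higher (809) or lower (174) in OTM. The slanting lines of points at the upper left are genes with few or no Control UMIs, whose ratio is limited by the floor of 3 UMIs, and Spp1 and Mmp13 stand out among the abundant genes.

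Type I collagen, the bulk of bone matrix, was the most abundant product in both libraries. Col1a1 (chromosome 11, GRCm38) had 37061 CPM in OTM members and 49867 CPM in Control members, a log2 ratio of -0.43 (-0.45 to -0.41), and Col1a2 had 23800 CPM in OTM and 27677 CPM in Control (-0.22). Bglap, the main osteocalcin gene, had 5449 CPM in OTM and 4556 CPM in Control (log2 ratio 0.26, 0.20 to 0.31), and its neighbour Bglap2 had 3172 CPM in OTM and 3620 CPM in Control (-0.19). Bglap3 had 150 CPM in OTM and 136 CPM in Control (0.14, -0.18 to 0.47). The 3 osteocalcin genes lie side by side on the minus strand of chromosome 3, from 88368616 to 88384464, and are near-identical, so how their reads were divided among them is uncertain. Ibsp, bone sialoprotein, had 6246 CPM in OTM and 4541 CPM in Control (0.46), and Sp7, a zinc finger factor needed for osteoblast formation, had 70.3 CPM in OTM and 77.7 CPM in Control (-0.15, -0.57 to 0.31). These summed levels hide a difference between the cells. The median member had 11.3 Bglap UMIs and 36.6 Ibsp UMIs per 10000 in OTM, against 20.6 Bglap UMIs and 2.01 Ibsp UMIs per 10000 in Control.

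Genes that bind or control mineral differed in size and direction. Spp1, osteopontin, a phosphorylated glycoprotein that anchors cells to mineral and limits crystal growth, had 17453 CPM in OTM members and 2544 CPM in Control members, 6.86-fold higher in OTM (log2 ratio 2.78, 2.71 to 2.85). Of the 77264 OTM UMIs, 61706 came from a sub-cluster of 41 OTM cells that held no Control cell (described below), and without the 2 sub-clusters that lacked Control cells the log2 ratio was 1.25. In the other collagen-rich cells Spp1 had 2007 CPM in OTM and 7.28 CPM in Control (8.11). After each cell was thinned to 3000 UMIs, Spp1 was found in 65.6% of OTM members (99 of 151, 57.4% to 73.1%) and 38.2% of Control members (13 of 34, 22.2% to 56.4%); without thinning the shares were 76.3% and 43.6%. Neutrophils showed Spp1 after the same thinning in 34.0% of OTM cells and 7.89% of Control cells, and their summed level was 434 CPM in OTM and 18.2 CPM in Control. The part of free RNA in the neutrophil and member shares was not tested. The median neutrophil had 5801 UMIs in OTM and 11421 in Control. Cells left out by the vessel limit also held Spp1 in Control: that group had 540 CPM in OTM and 1433 CPM in Control. Dmp1, a matrix protein of late osteoblasts and osteocytes, had 789 CPM in OTM members and 182 CPM in Control members (4.33-fold, log2 ratio 2.11, 1.85 to 2.39), with 45.9% of the Control UMIs in 1 cell. In members thinned to 3000 UMIs the log2 ratio was 2.62. Dmp1 was then found in 31.1% of OTM members (23.8% to 39.2%) and 20.6% of Control members (8.70% to 37.9%), and these intervals overlap. It had no UMI in any of the 181 OTM and 41 Control neutrophils, which allows shares of up to 1.66% and 7.32% (3 cells of the total). Phex, an endopeptidase of osteocytes whose loss leads to phosphate wasting, had 103 UMIs in OTM members (23.3 CPM) and 1 UMI in Control members (1.49 CPM), a log2 ratio with a counting interval of 1.45 to 9.28.

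The SIBLING family, secreted glycoproteins of mineralised tissue, is encoded by neighbouring genes on chromosome 5 of GRCm38 (Dmp1 from 104202613 to 104214102, Ibsp from 104299171 to 104311469, Mepe from 104325329 to 104338611 and Spp1 from 104435118 to 104441050, all on the plus strand). Of this cluster, Spp1 and Dmp1 were past 2-fold, Ibsp was not, and Mepe had only 8 UMIs in OTM members and 0 in Control members. Sost, sclerostin, the Wnt inhibitor of mature osteocytes, had 0 UMIs in both libraries (0 of 152 OTM cells and 0 of 39 Control cells, which allows shares of cells with a UMI of up to 1.97% and 7.69%). Mgp, matrix Gla protein, an inhibitor of calcification, had 465 CPM in OTM members and 56.8 CPM in Control members (log2 ratio 3.03, 2.57 to 3.54). Of the 2059 OTM UMIs of Mgp, 2011 came from the largest sub-cluster, which held OTM cells only (described below). Mgp was lower in OTM without the OTM-only sub-clusters (-1.66) and in the osteocalcin-led members described below (-1.80). Of the 10 measured SIBLING and mineral-binding genes, 3 were at least 2-fold higher and 2 at least 2-fold lower in OTM, with a median of 0.32 (all genes: 9.34% higher, 2.01% lower). The lower ones were Thbs1 (-1.04) and Ambn, an enamel matrix gene (45 UMIs in OTM and 25 in Control, -1.88). Enpp1, which makes the mineral inhibitor pyrophosphate, had 109 CPM in OTM and 26.9 CPM in Control (2.02, 1.34 to 2.79). Smpd3, a sphingomyelinase that mineralisation requires, had 211 CPM in OTM and 561 CPM in Control (-1.41, -1.59 to -1.23). Alpl, tissue-nonspecific alkaline phosphatase, had 300 CPM in OTM and 253 CPM in Control (0.25, 0.01 to 0.49).

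**Figure D3:**
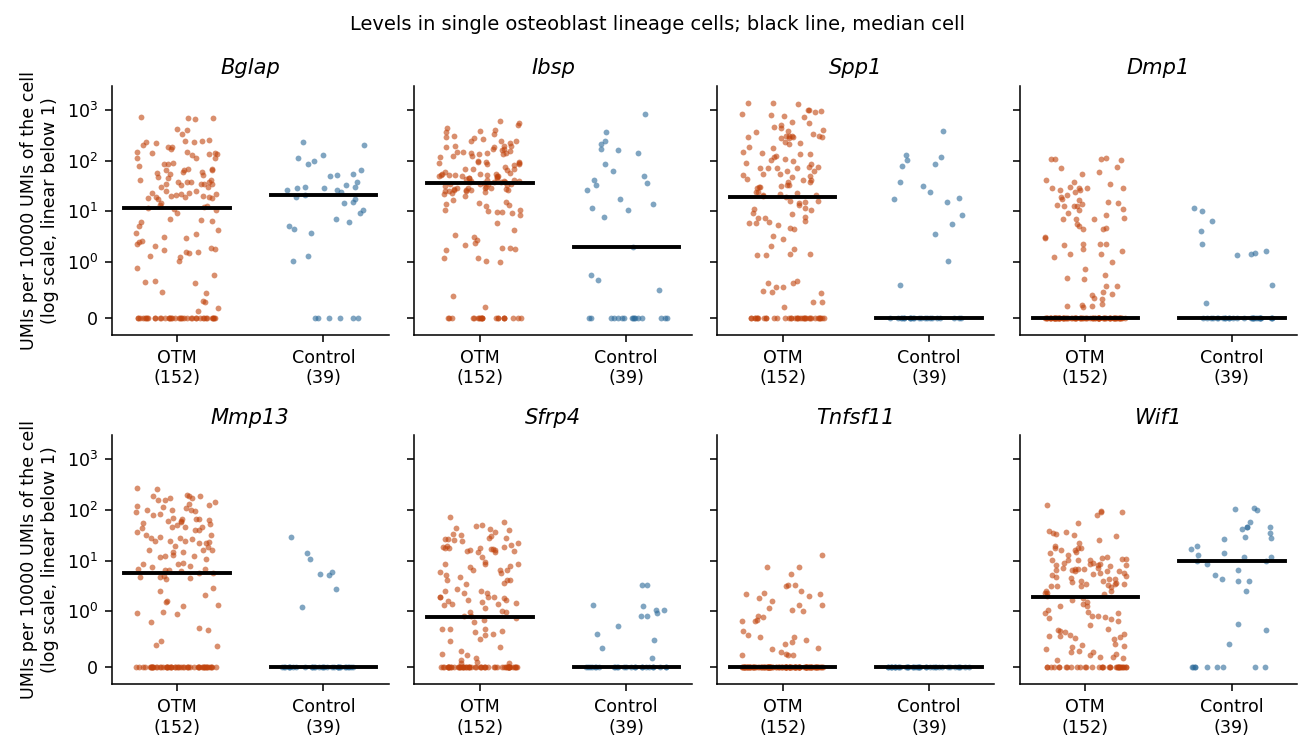
Each point is 1 osteoblast lineage cell (152 OTM, 39 Control), with UMIs of the gene per 10000 UMIs of the cell on the vertical axis (log scale, linear below 1) and the median cell as a black line. The medians for Ibsp, Spp1 and Mmp13 lie above those of Control in OTM and the medians for Bglap and Wif1 below; no Control cell had a Tnfsf11 UMI, and the libraries overlap for all 8 genes, since some OTM cells also had no UMI.

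Promoter sequence is shown for 4 genes on which the comparison turns, Bglap and Ibsp (close to level) and Spp1 and Mmp13 (higher in OTM), to show whether letters bound by the osteoblast factor Runx2 or by AP-1 stand near the start. The sequences are the 250 bases before the RefSeq transcription start on the gene's own strand in GRCm38.p6, written 5′ to 3′, with the matched letters in capitals. Bglap lies at chr3:88384467-88384716 (minus strand), Ibsp at chr5:104299037-104299286, Spp1 at chr5:104434861-104435110 and Mmp13 at chr9:7272264-7272513 (all plus strand).
Bglap: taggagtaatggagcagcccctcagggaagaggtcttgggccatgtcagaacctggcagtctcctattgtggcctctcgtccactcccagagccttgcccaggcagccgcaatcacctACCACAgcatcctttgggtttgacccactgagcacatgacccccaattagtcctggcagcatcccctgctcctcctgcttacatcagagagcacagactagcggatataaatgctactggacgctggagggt
Ibsp: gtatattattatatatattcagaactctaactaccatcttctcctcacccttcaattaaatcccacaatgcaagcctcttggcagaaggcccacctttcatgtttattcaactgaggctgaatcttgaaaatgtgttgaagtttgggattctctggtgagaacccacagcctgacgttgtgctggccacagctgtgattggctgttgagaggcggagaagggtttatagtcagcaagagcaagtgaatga
Spp1: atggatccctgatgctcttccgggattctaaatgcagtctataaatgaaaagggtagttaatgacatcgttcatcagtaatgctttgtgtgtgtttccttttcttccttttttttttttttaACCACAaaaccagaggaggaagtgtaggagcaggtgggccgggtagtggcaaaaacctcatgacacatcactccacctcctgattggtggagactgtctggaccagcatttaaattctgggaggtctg
Mmp13: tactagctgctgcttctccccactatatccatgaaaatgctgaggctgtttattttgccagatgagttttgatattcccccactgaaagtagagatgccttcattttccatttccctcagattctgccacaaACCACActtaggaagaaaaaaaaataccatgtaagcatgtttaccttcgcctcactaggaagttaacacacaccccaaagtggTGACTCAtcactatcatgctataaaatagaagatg
The Runx letters searched were ACCACA and their reverse complement TGTGGT, and the AP-1 letters were TGAGTCA and TGACTCA; these motifs share no letters at any match shown. ACCACA began 132 bases before the start of Bglap, 128 before that of Spp1 and 118 before that of Mmp13, and TGACTCA began 35 bases before the start of Mmp13. The Ibsp window held none of these letters. Of 32851 RefSeq promoter windows of 250 bases, 14% held the Runx letters and 4.46% the AP-1 letters, so a single match is common, and Runx letters stood both at a gene close to level and at genes higher in OTM.

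Levels were then set beside those of the other collagen-rich cells of the same library, to describe which summed levels set the members apart beyond the rule. Of the 15 genes with the highest ratio in both libraries, 12 were not used by the rule. Bglap3 is among these, though it is near-identical to the rule genes Bglap and Bglap2. Dmp1 had 789 CPM in OTM members and 11.1 CPM in other OTM cells (log2 ratio 6.15), and 182 CPM in Control members against 0 UMIs in other Control cells. Car3, a carbonic anhydrase, had 41.8 CPM in OTM members and 0.857 CPM in the other OTM cells (5.61), and 95.7 CPM in Control members against 0 UMIs. It was detected in only 23.0% of OTM and 23.1% of Control members, with 59.4% of the Control member UMIs in 1 cell. Pla2g5, a secreted phospholipase, had 70.0 CPM in OTM members and 1.71 CPM in other OTM cells (5.35), and 73.2 CPM in Control members and 1.21 CPM in other Control cells (5.33). Col22a1, Col11a2, Ifitm5, Sema3d, Grrp1, Car2, Cyfip2, Bmp8a and Bglap3 completed the set, with ratios of 3.73 to 7.31. Cyfip2 was higher in neutrophils (114 CPM in OTM and 191 CPM in Control) than in members (55.8 CPM in OTM and 50.8 CPM in Control). Car2 was detected in 19.7% of OTM and 20.5% of Control members, with 48.6% and 39.5% of its UMIs in 1 cell. Ifitm5, a membrane protein of mineralising osteoblasts, had 165 CPM in OTM members and 12.2 CPM in other OTM cells, and 241 CPM in Control members and 2.43 CPM in other Control cells. Over all genes, 380 of 12643 (3.01%) in OTM and 256 of 7596 (3.37%) in Control were at least 2-fold above their level in other collagen-rich cells, and 880 (6.96%) in OTM and 1029 (13.5%) in Control at least 2-fold below it; the rule used this contrast, so nothing is read from these counts.

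Members were not uniform, and osteocalcin and bone sialoprotein tended to lead in different cells. Across cells, Spearman's rho of Ibsp with summed Bglap and Bglap2 was -0.35 in 152 OTM cells and -0.31 in 39 Control cells. Cells of a library share its depth, and the values are shares of each cell's UMIs. The rule also asked for the sum of these genes, so a member low in osteocalcin had to be higher in the other osteogenic rule genes. That selection by itself pushes this rho down, so these values are descriptions. The genes whose pattern was most like osteocalcin in both libraries were Bglap3 (rho 0.88 in OTM and 0.68 in Control), Pla2g5 (0.50 and 0.39) and Cyfip2 (0.49 and 0.36), followed by Fxyd1, Gnai1, Ica1, Sphkap and Vit. The most opposite were Col12a1, a collagen that coats fibrils in ligament (-0.58 in OTM and -0.40 in Control), and Itgb5, an integrin subunit (-0.45 and -0.40), followed by Pdlim4, Arl4c and Efna5. Mmp13 ran against osteocalcin in OTM (-0.63) and less so in Control (-0.16), and Dmp1 ran with it (0.50 in OTM and 0.32 in Control).

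Members were therefore split by which transcript led, a split chosen after these values were seen. Bglap plus Bglap2 exceeded Ibsp in 61 of 152 OTM members (40.1%, 32.3% to 48.4%) and in 26 of 39 Control members (66.7%, 49.8% to 80.9%), called osteocalcin-led here, and the other 91 OTM and 13 Control members are called Ibsp-led. After thinning, Bglap2 was detected in 62.3% of OTM members and 91.2% of Control members, and Ibsp in 82.1% of OTM members and 52.9% of Control members, while neither passed 3.09% in the neutrophils of either library. Within osteocalcin-led members alone, 549 of 6527 genes (8.41%) were at least 2-fold higher in OTM and 125 (1.92%) at least 2-fold lower. Bglap had 11624 CPM in OTM osteocalcin-led cells and 5567 CPM in Control osteocalcin-led cells (log2 ratio 1.06, 1.01 to 1.12), and Dmp1 had 1325 CPM in OTM and 234 CPM in Control (2.50, 2.24 to 2.78). Spp1 was 6301 CPM in OTM and 2749 CPM in Control (1.20) and Mmp13 was 422 CPM in OTM and 184 CPM in Control (1.20), so both were nearer to level than over all members. Tnfrsf11b had 227 CPM in OTM and 105 CPM in Control in these cells (1.11, 0.70 to 1.55).

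Ibsp-led members held 16696 of the 17498 Mmp13 UMIs and 11379 of the 12345 Timp1 UMIs of OTM members, and their Control side rests on 13 cells. Of 6077 genes measured in them, 673 (11.1%) were past 2-fold upward in OTM and 188 (3.09%) downward. Mmp13 had 6603 CPM in OTM Ibsp-led cells and 48.9 CPM in Control Ibsp-led cells (8 UMIs), Timp1 had 4500 CPM in OTM and 251 CPM in Control, and Spp1 had 25825 CPM in OTM and 1913 CPM in Control. Dmp1 had 386 CPM in OTM and 24.4 CPM in Control (log2 ratio 3.98, on 4 Control UMIs). Thbs4 had 699 CPM in OTM Ibsp-led cells and 4278 CPM in Control Ibsp-led cells, and Tnfrsf11b had 93.7 CPM in OTM and 238 CPM in Control. The direction of Tnfrsf11b thus ran opposite ways in the osteocalcin-led and Ibsp-led cells, a difference that was not tested. Mgp, Tnc, Fn1 and S100a4 were higher in OTM over all members but not within osteocalcin-led ones: Mgp there had 41 UMIs in OTM (21.6 CPM) and 38 in Control (75.2 CPM), a log2 ratio of -1.80.

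**Figure D4:**
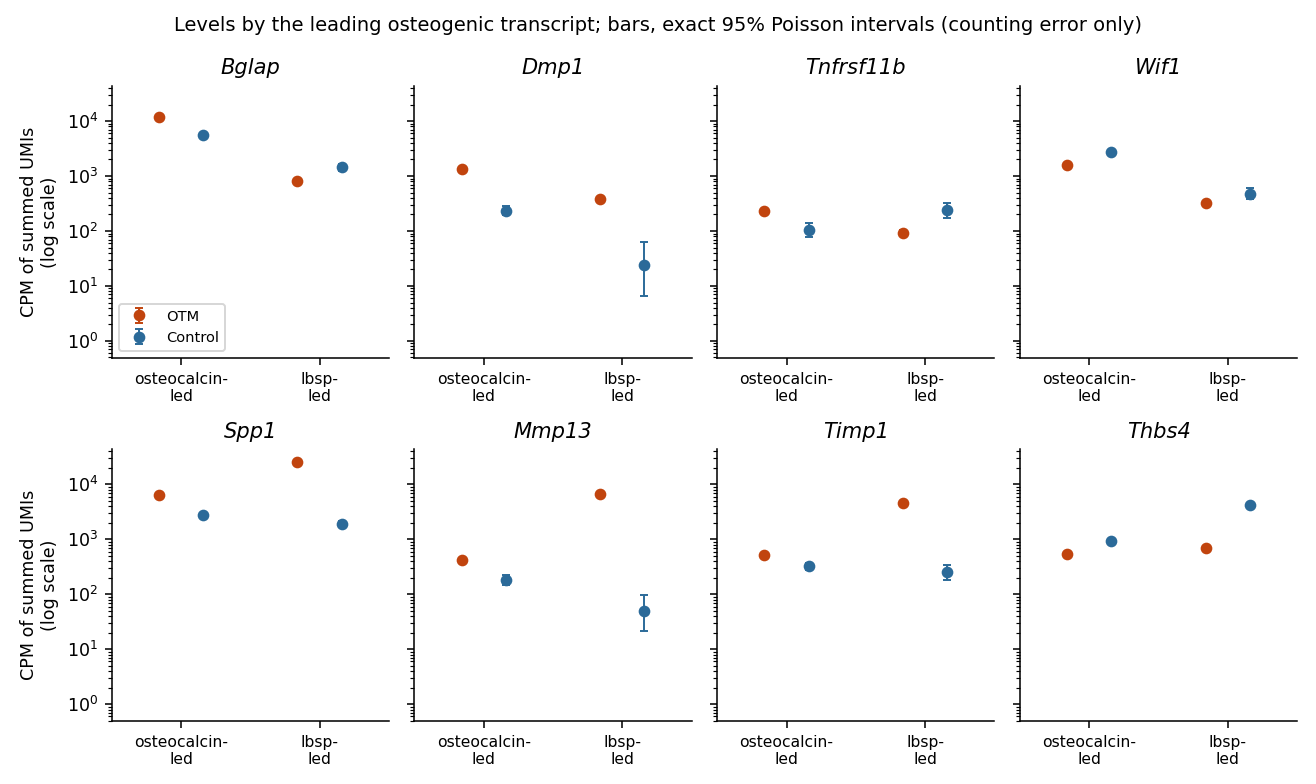
Points give the level of 8 genes (CPM of summed UMIs, log scale) in osteocalcin-led and Ibsp-led members of OTM (left of each pair, 61 and 91 cells) and Control (26 and 13 cells), with exact 95% Poisson intervals that cover counting error only. Mmp13, Timp1, Dmp1 and Spp1 are higher in OTM in both, by more in the Ibsp-led cells, where Dmp1 rests on 4 Control UMIs. Tnfrsf11b is higher in OTM in the osteocalcin-led cells and lower in the Ibsp-led ones, and Wif1 and Thbs4 are lower in OTM in both.

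Clustering of the members without the 7 collagen and osteogenic rule genes gave 7 sub-clusters, which are left unnamed. The largest, of 41 cells, was led by Mgp, Pdzrn4, Col6a3, Mmp13, Tnfsf11 and Sfrp4, and 1 of its cells was osteocalcin-led. A sub-cluster of 37 cells was led by Slpi and Dmp1 and 1 of 27 cells by Ifitm5, Mmp16 and Smpd3, and 29 and 22 of these cells were osteocalcin-led. The others were led by Sparcl1, Thbs4 and Wnt5a (32 cells), by Aspn and Igfbp5 (21 cells), by Pcp4 and Wif1 (18 cells) and by Pde4b and Adgrl3 (15 cells). In the 41 cells Smpd3 had 0 UMIs and Ifitm5 8.2 CPM. The 37 and 27 cells had 561 and 970 CPM of Smpd3 and 327 and 742 CPM of Ifitm5. Ifitm5 was also low in the sub-clusters of 21, 18 and 15 cells (4.67, 4.19 and 3.47 CPM). Ibsp, a rule gene, had 8911 CPM in the 41 cells, 1679 CPM in the 37 and 2995 CPM in the 27. Sfrp4 and Ccn5, ligament fibroblast markers, had 1911 and 300 CPM in the 41 cells. Whether those cells belong to the lineage was not tested. The sub-clusters of 41 and 15 cells held OTM cells only; with 1 library per group, a cluster of 1 library may be that library, so their sizes were not compared. Several differences given over all members were smaller without these 2 sub-clusters. The clusters were formed on the same expression values, so leaving out OTM cells grouped by high levels of a gene lowers its OTM ratio. The ratios that follow are therefore a description. Without the 2 sub-clusters the log2 ratio was 1.25 for Spp1, 2.39 for Mmp13, 1.32 for Timp1, 2.76 for Sfrp4, 2.64 for Serpine2, 2.84 for Inhba and 1.33 for Csf1. Those of Col6a3 (1.20), Col6a2 (0.78), Col6a1 (0.65) and Col5a3 (0.41) were also smaller, the last 3 under 2-fold. Wif1 (-0.67), Omd (-0.68), Smpd3 (-0.62) and Thbs4 (-0.98) were under 2-fold as well, while Dmp1 was at 2.80.

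Several collagens other than type I were higher in OTM members. Of 19 measured fibrillar and bone collagens, 5 were at least 2-fold higher and 1 lower (all genes: 9.34% higher, 2.01% lower), with a median log2 ratio of 0.53. The 3 chains of type VI collagen, a beaded filament around cells, were among them: Col6a3 had 723 CPM in OTM and 53.8 CPM in Control (13.4-fold, log2 ratio 3.75, 3.28 to 4.26), Col6a2 had 603 CPM in OTM and 141 CPM in Control (2.10), and Col6a1 had 866 CPM in OTM and 227 CPM in Control (1.93). Col5a3, a minor fibril collagen, had 230 CPM in OTM and 37.4 CPM in Control (2.62), and Col13a1, a membrane collagen, was at 1.35. Col3a1, a rule gene typical of soft connective tissue, had 8623 CPM in OTM and 4710 CPM in Control (0.87). Col22a1, found at tissue junctions, had 53.3 CPM in OTM and 118 CPM in Control (-1.15). Enzymes of collagen folding and cross-linking stayed near level, with 2 of 24 at least 2-fold higher and 0 lower; the 2 were P4ha3, a prolyl hydroxylase subunit (1.37), and Loxl1, a cross-linking oxidase (1.31). Serpinh1, the collagen chaperone, had 2614 CPM in OTM and 2602 CPM in Control (0.01, -0.07 to 0.08).

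Among proteoglycans and matricellular proteins, 3 of 21 were at least 2-fold higher and 3 lower (all genes: 9.34% higher, 2.01% lower). Ccn5, a CCN family protein, had 529 UMIs in OTM members (119 CPM) and 0 in Control members, at least 26.6-fold higher against a floor of 3 UMIs, and Fmod, fibromodulin, had 434 UMIs in OTM and 4 in Control (4.04, 2.67 to 5.92). Tnc, tenascin-C, had 320 CPM in OTM and 109 CPM in Control (1.55). The largest sub-cluster, which held OTM cells only, gave 475 of the 529 Ccn5 UMIs and 336 of the 434 Fmod UMIs. It also gave 1128 Tnc UMIs. Without the OTM-only sub-clusters the log2 ratios were 2.24 for Ccn5, 2.61 for Fmod and -0.17 for Tnc. In the other collagen-rich cells Ccn5 had 106 CPM in OTM and 0 UMIs in Control, so its difference was not confined to members. Omd, osteomodulin, an osteoblast proteoglycan, had 754 CPM in OTM and 1785 CPM in Control (-1.24, -1.34 to -1.15), and was found after thinning in 65.6% of OTM members and 97.1% of Control members, and in 0 thinned neutrophils of either library. Thbs4, a thrombospondin, had 632 CPM in OTM and 1738 CPM in Control (-1.46, -1.56 to -1.36). Bgn had 2310 CPM in OTM and 2335 CPM in Control (-0.02).

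The proteases and their inhibitors held 9 of 23 genes at least 2-fold higher in OTM and 0 lower (all genes: 9.34% higher, 2.01% lower), with a median of 0.62. Mmp13, collagenase 3, which cleaves fibrillar collagen, had 3953 CPM in OTM members and 151 CPM in Control members (26.2-fold, log2 ratio 4.71, 4.43 to 5.01), with 14744 of the 17498 OTM UMIs in the sub-cluster of 41 OTM cells and a log2 ratio of 2.39 without the 2 OTM-only sub-clusters. It was found after thinning in 55.6% of OTM members (47.3% to 63.7%) and 8.82% of Control members (1.86% to 23.7%), and in 3.70% of OTM and 0 of 38 Control neutrophils. Timp1, an inhibitor of metalloproteinases, had 2789 CPM in OTM and 303 CPM in Control (3.20, 3.0 to 3.41), and Serpine2, an inhibitor of thrombin and urokinase, had 415 CPM in OTM and 20.9 CPM in Control (4.31, 3.56 to 5.19). Mmp9 had 176 UMIs in OTM and 0 in Control, and 45.5% of the OTM UMIs came from 1 cell. Adamts4, Adamts5, Plaur and Mmp11 were between 1.18 and 2.08, and Mmp3 rested on 43 UMIs of which 97.7% came from 1 cell. Mmp14, the membrane collagenase, had 731 CPM in OTM and 577 CPM in Control (0.34). In the other collagen-rich cells Mmp13 had 4064 CPM in OTM and 501 CPM in Control and Timp1 had a log2 ratio of 3.32, so both were also higher in OTM outside the members.

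Of 19 measured regulators of osteoclasts, 6 were at least 2-fold higher in OTM and 0 lower (all genes: 9.34% higher, 2.01% lower). Tnfsf11, RANKL, the cytokine that drives osteoclast formation, had 306 UMIs in OTM members (69.1 CPM) and 0 in Control members, at least 15.4-fold higher. It was seen in 25% of OTM members (38 of 152), in 0 of 39 Control members, which allows up to 7.69%, and in 0 of 181 OTM and 0 of 41 Control neutrophils. Of the 306 UMIs, 300 came from Ibsp-led cells and 299 from the sub-cluster of 41 OTM cells, in which Control had no cell. After thinning it was found in 8.61% of OTM members (4.66% to 14.3%) and 0 of 34 Control members (0% to 10.3%), and these Clopper-Pearson intervals overlap. In the other collagen-rich cells it had 49.8 CPM in OTM and 2.43 CPM in Control (4.36, on 4 Control UMIs). Tnfrsf11b, osteoprotegerin, the decoy receptor of RANKL, had 151 CPM in OTM and 138 CPM in Control (0.13, -0.18 to 0.46). Csf1, a growth factor of osteoclast precursors, had 54.2 CPM in OTM and 7.47 CPM in Control (2.86, 1.62 to 4.49), on 240 UMIs in OTM and 5 in Control. Lif, Ccl2, Il11 and Pth1r were the other 4, and in Control Lif rested on 2 UMIs, Ccl2 on 7 and Il11 on 6, the Lif and Ccl2 UMIs each from 1 cell. Pthlh, parathyroid hormone-related protein, had 152 CPM in OTM and 280 CPM in Control (-0.87).

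The inflammatory cytokines and chemokines had 11 of 24 genes at least 2-fold higher and 1 lower (all genes: 9.34% higher, 2.01% lower). Their median was 0.86, and several rested on few cells. Cxcl1, a neutrophil attractant, had 415 UMIs in OTM (93.7 CPM) and 12 in Control (17.9 CPM), a log2 ratio of 2.39 (1.57 to 3.35), with 24.1% of the OTM UMIs in 1 cell. Cxcl5 had 229 UMIs in OTM and 0 in Control, with 55.0% in 1 OTM cell, Il1b had 72 UMIs in OTM and 1 in Control, with 97.2% in 1 OTM cell, and Ccl5 had 70.0% of its 90 OTM UMIs in 1 cell. Vcam1, a leukocyte adhesion molecule, was spread more widely, with 70 UMIs in OTM, 14.3% of them in 1 cell, and 0 UMIs in Control. Ccl2, Cxcl2, Il1rl1, Il11, Lif and Tnfaip2 completed the 11. Icam1 was the lower gene (57.4 CPM in OTM and 133 CPM in Control, -1.21). Of 13 interferon response genes 5 were higher; Ifitm3 had 1122 CPM in OTM and 493 CPM in Control (1.19), whereas Cd74 rested on the single cell named above.

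The Wnt pathway had more genes past 2-fold on the lower side, with 3 of 26 higher, 6 lower and a median of -0.42 (all genes: 9.34% higher, 2.01% lower). Sfrp4, a secreted Wnt antagonist, was the exception in size, with 829 CPM in OTM and 29.9 CPM in Control (27.7-fold, log2 ratio 4.79, 4.16 to 5.51). Of its 3671 OTM UMIs 3029 lay in the sub-cluster of 41 OTM cells, and the log2 ratio was 2.76 without the 2 OTM-only sub-clusters. Wif1, another secreted antagonist, had 877 CPM in OTM and 2150 CPM in Control (-1.29, -1.38 to -1.21), and it also heads the stroma markers whose sum is given above. Axin2 and Nkd1, feedback targets of the pathway, were both at -1.51 (51 UMIs in OTM and 22 in Control for Axin2, 65 UMIs in OTM and 28 in Control for Nkd1), and Tcf7, a transcription factor of the pathway, was at -1.05. The ligands were mixed: Wnt7b was at 1.23 (155 UMIs in OTM and 10 in Control) and Wnt10a at -1.06, and the receptor Fzd2 was at -1.05. Without the 2 OTM-only sub-clusters Axin2 was at -1.22. Nkd1 (-0.93), Tcf7 (-0.40), Wnt10a (-0.49), Fzd2 (-0.56) and Wif1 (-0.67) were under 2-fold there. In osteocalcin-led members Nkd1 was at -1.08 and Axin2 was not measured. Tcf7 (-0.51), Wnt10a (-0.57), Fzd2 (-0.39) and Wif1 (-0.73) were under 2-fold in those members.

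The BMP and TGF-beta list held 32 measured genes with a median of -0.24, 5 of them past 2-fold upward and 0 downward. Over all genes 9.34% were higher and 2.01% lower, beside which the counts of this and the next lists stand. Inhba, the activin A subunit, had 214 CPM in OTM and 14.9 CPM in Control (14.3-fold, 3.84, 2.95 to 4.90), and Tgfb2 had 145 CPM in OTM and 47.8 CPM in Control (1.60). Bmp6 was at 1.74 on 265 UMIs in OTM and 12 in Control, but 75% of the Control UMIs came from 1 cell, and with the osteogenic threshold at 0.1% the log2 ratio was -0.20. Of 23 genes of PTH, hedgehog, Notch, FGF and IGF signalling, 4 were higher and 2 lower: Jag1, a Notch ligand, had 56.5 CPM in OTM and 13.5 CPM in Control (2.07), Pth1r, the parathyroid hormone receptor, had 105 CPM in OTM and 52.3 CPM in Control (1.00), and Fgf9 was at -1.65. Cav1, the caveolae protein, was at 2.24 and P2rx7, an ATP-gated channel, at 1.01, the only genes of 25 in the mechanosensing and YAP list past 2-fold.

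The transcription factors of the lineage stayed near level, with 1 of 20 at least 2-fold higher and 1 lower (all genes: 9.34% higher, 2.01% lower). Runx2 had 840 CPM in OTM and 715 CPM in Control (0.23, 0.10 to 0.37), and Dlx5, a homeobox gene, had 38.9 CPM in OTM and 71.8 CPM in Control (-0.88). Dlx3 was the higher one (81 UMIs in OTM and 5 in Control, 1.29, 0.01 to 2.95) and Tcf7 the lower one. Stage lists overlap in their members and were mixed: 5 of 20 preosteoblast genes were higher and 1 lower (median 0.02), 2 of 18 mature osteoblast genes higher and 4 lower (median -0.0047), and 4 of 15 osteocyte genes higher and 2 lower (median 0.21). Of 15 progenitor genes Ly6a was higher (1.10) and Axin2 lower.

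Cell cycle genes had the highest median of the 26 lists, 2.12, with 14 of 21 at least 2-fold higher and 0 lower (all genes: 9.34% higher, 2.01% lower). Ube2c, a mitotic ubiquitin enzyme, had 327 UMIs in OTM members and 2 in Control members, Birc5, survivin, had 253 in OTM and 3 in Control, and Mki67, the proliferation antigen Ki-67, had 113 in OTM and 0 in Control. Top2a, topoisomerase II, had 60.5 CPM in OTM and 23.9 CPM in Control (1.34, 0.61 to 2.17). At equal depth the difference was within counting error: any of 9 mitotic genes was found in 16.6% of OTM members (25 of 151, 11% to 23.5%) and 8.82% of Control members (3 of 34, 1.86% to 23.7%), against 40.8% and 23.1% without thinning. The same 9 genes were found after thinning in 13.6% of OTM neutrophils and 10.5% of Control neutrophils. The list median in members thinned to 3000 UMIs was 0.29, over fewer genes, so it is not comparable with 2.12. Of the 14 higher genes, only Stmn1 (1.58) and Ube2c (1.17) were still measured after thinning, and both stayed past 2-fold. The others, Birc5, Mki67 and Top2a among them, no longer reached the count minimum. In the other collagen-rich cells the list median was 2.05.

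Metabolic and stress lists showed smaller medians, and their counts stand beside 9.34% higher and 2.01% lower over all genes. Of 23 glycolysis and hypoxia genes 4 were higher (Epas1, Slc16a3, Pgk1 and Eno1, 1.06 to 1.41) and 2 lower, Adm, adrenomedullin (-2.28), and Ankrd37 (-1.54); Gapdh had 730 CPM in OTM and 413 CPM in Control (0.82). Of 32 secretory pathway genes Hyou1 and Creld2 were higher (1.12 and 1.05) and Dnajb9 lower (-1.02), and of 14 amino acid genes 3 were higher. Of 20 oxidative phosphorylation genes Cox5a alone passed 2-fold (1.02). Of 12 phosphate and pyrophosphate genes 2 were higher and 1 lower, as given above by name. The immediate early genes, which tissue digestion can switch on, had 0 of 24 past 2-fold in either direction and a median of -0.37; Fos had 1784 CPM in OTM and 2664 CPM in Control (-0.58). Of 17 periodontal ligament and cementum genes 4 were higher and 3 lower; Postn, periostin, had 1628 CPM in OTM and 912 CPM in Control (0.84), and Pcp4 had 148 UMIs in OTM, 74.3% of them in 1 cell, and 52 in Control (-1.22). Of the 6 measured adipogenic and chondrogenic genes Lpl and Col2a1 were higher and Cebpa and Apoe lower.

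**Figure D5:**
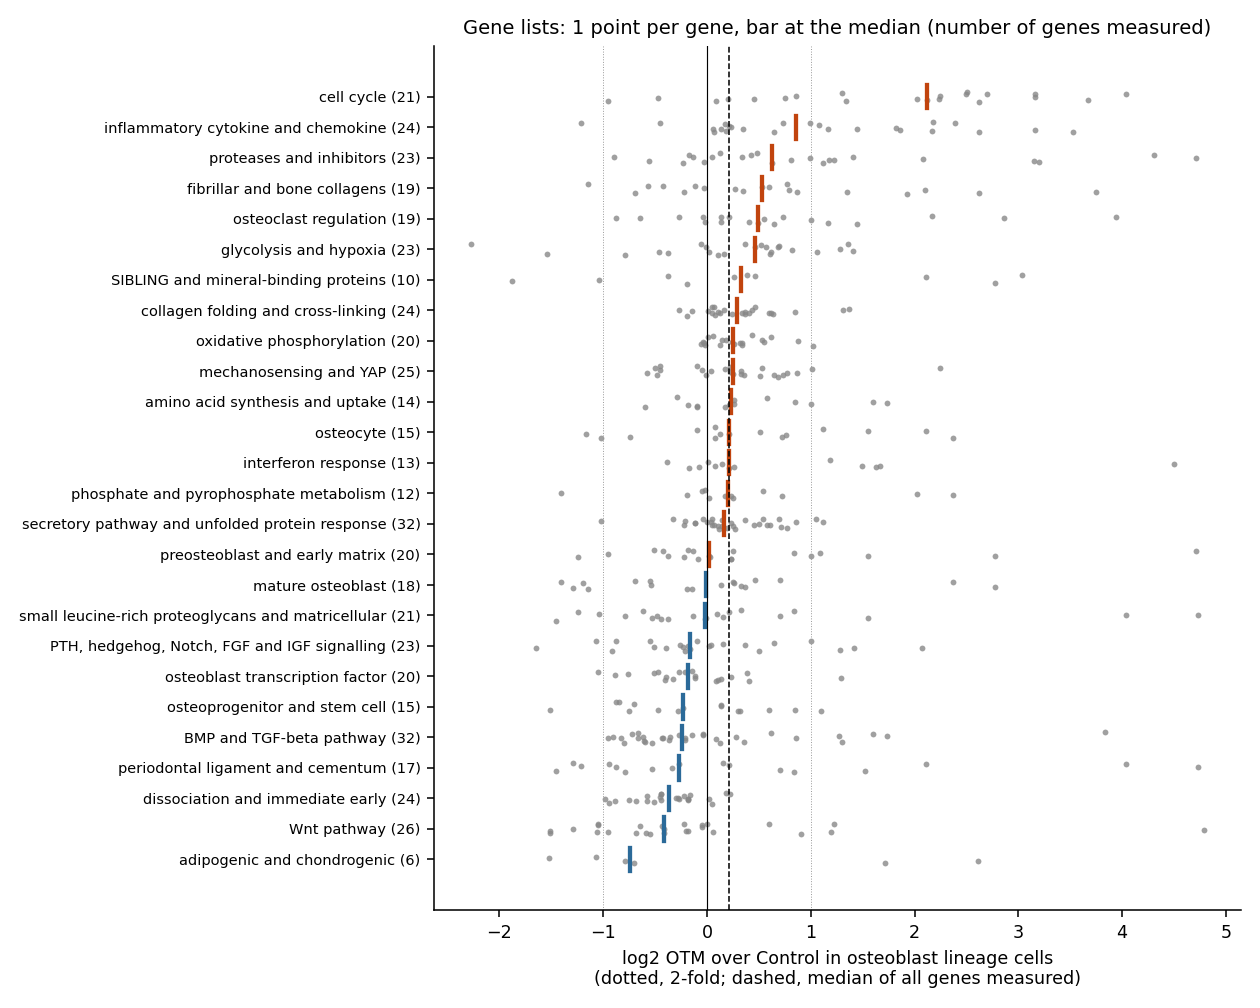
Rows are 26 gene lists, with 1 point for the log2 ratio of OTM over Control of each measured gene in osteoblast lineage cells and a bar at the list median; the number of measured genes is in parentheses. The dashed line is the median of all 8659 genes, 0.21; cell cycle stands highest at 2.12 and adipogenic and chondrogenic lowest at -0.75, and most lists hold points on both sides of 0.

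The 12 genes with the highest ratio by the naming rule included, besides Mmp13, Serpine2, Ube2c, Tnfsf11, Inhba and Col6a3 above, Pdzrn4, Slpi, Ccdc162, C1qtnf3, Hist1h2ap and Anxa8. Pdzrn4, a PDZ and RING finger gene, had 804 UMIs in OTM members (182 CPM) and 1 in Control members, a log2 ratio of 6.92 with an interval of 4.44 to 12.2. With Control at the floor of 3 UMIs the Pdzrn4 log2 ratio was 5.34. C1qtnf3, a secreted C1q/TNF-related protein, had 399 UMIs in OTM and 0 in Control, at least 20.1-fold higher, with 21.8% of the OTM UMIs in 1 cell. Slpi, a secreted antiprotease, had 1287 CPM in OTM and 46.3 CPM in Control, but 88.5% of the OTM UMIs came from 1 cell. Hist1h2ap, a replication histone, had 52.6% of its 272 OTM UMIs in 1 cell and 0 UMIs in Control. Ccdc162 and Anxa8 had 422 and 268 UMIs in OTM and 1 each in Control.

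The 12 genes with the lowest ratio were Chst13, Fhad1, Prdm11, Itgb3bp, Nnat, Gsg1l, Kctd8, Syndig1, Mfap4, Adm, St3gal3 and Pqlc1. Their log2 ratios ran from -3.46 to -2.22, on 20 to 163 Control UMIs. In each of them a single Control cell held 30.0% to 86.6% of the Control UMIs, so each rests in part on that cell. Pqlc1, a PQ-loop membrane protein, had 52.4 CPM in OTM and 244 CPM in Control (-2.22, -2.51 to -1.92), Mfap4, a microfibril protein, had 13.1 CPM in OTM and 64.3 CPM in Control (-2.29), and Adm had 18.5 CPM in OTM and 89.7 CPM in Control. For comparison, the top Control cell held 9.13% of the Omd UMIs, 18.7% of the Wif1 UMIs, 23.0% of the Thbs4 UMIs and 24% of the Smpd3 UMIs.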

How the data were processed

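Raw UMI counts per gene and barcode were deposited; per the file headers, Cell Ranger 7.0.1 wrote them. Per the submitters' processing notes, mm10, GRCm38 and Seurat were used, and settings are not given in the sources used here. The libraries held 1539 OTM and 369 Control barcodes with 36010801 and 5723299 UMIs. Filtering to 200 or more genes and no more than 20% mitochondrial UMIs left 1412 and 348 cells. UMIs were summed per gene over the members of each library and divided by the member total (CPM). A gene was measured with at least 20 UMIs in the higher library and called at 2-fold. Sums have exact Poisson, shares Clopper-Pearson, differences of shares Newcombe and ratios conditional exact binomial 95% intervals. Where the lower library had under 3 UMIs, its sum was set to 3 for calls and list medians. Scrublet called 8 OTM cells (1 of them a member) and 2 Control cells as doublets, which were kept. Sub-clusters came from scanpy 1.11.5 (2000 variable genes, 15 components, 10 neighbours, Leiden resolution 0.6). The ratio step was tested on simulated data. A low gene could meet the count minimum through the deeper OTM library alone. Promoters came from RefSeq (GRCm38.p6), and GENCODE M21 held 32158 of 32285 gene identifiers.

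Members, the 26 gene lists and the 14 marker lists were chosen with earlier results of these data known. Genes were named by a rule: the 12 highest and 12 lowest ratios among genes detected in at least 10% of members and at a CPM of at least 10% of the highest other cell group, leaving out ribosomal, mitochondrial, haemoglobin and clone-named genes and markers of other cell types; the 15 highest over other collagen-rich cells; the 8 most and 5 least like osteocalcin; and rule genes, abundant list members and list members past 2-fold. Other genes were named after their values were seen. Alternatives changed the cell filter, doublets, osteogenic threshold, scaling (edgeR 4.0.16 TMM factors), weight of cells, cell depth and count minimum.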

Additional observations from a re-analysis of the deposited data

Results flagged for a closer look

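In 3 genes the OTM and Control libraries differed at least 2-fold one way in osteoblast lineage cells and at least 2-fold the other way in the other collagen-rich cells; the difference between the cell groups was not tested. Nnat had a log2 ratio of OTM over Control of -2.60 in members and 2.46 in other collagen-rich cells, and rests on 23 member UMIs in OTM and 21 in Control, 52.4% of the Control UMIs in 1 cell. Dlx3, a homeobox gene of the osteoblast lineage, was at 1.29 in members (81 UMIs in OTM and 5 in Control) and -1.02 in other collagen-rich cells, and at 0.15 in members chosen with the osteogenic threshold at 0.1%. Igfbp3, an IGF-binding protein, was at 1.28 in members (274 UMIs in OTM and 17 in Control) and -1.79 in other collagen-rich cells; with the threshold at 0.1% the member value was -1.19, on the same side as in the other cells.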

How the results depend on the processing

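No paired analysis was possible because the labels give no replicate numbers and each group is 1 library. The share difference stayed within its counting interval under every alternative run, from -4.41 to 0.35 points; the intervals of osteocalcin-led members only (-6.58 to -0.35) and of members outside the 2 OTM-only sub-clusters (-8.40 to -0.98) leave out 0. Counts of genes moved most with the count minimum and depth: 305 higher and 32 lower in members thinned to 3000 UMIs (2549 genes measured), 67 lower with at least 50 UMIs in the higher library, 2788 lower with no filter, where a single Control UMI exceeds 2-fold, and 251 higher at 30 CPM, an alternative chosen after seeing the data, as were the 2 subsets of members above and leaving out mixed members (771 higher and 163 lower). The higher genes made up 82.3% of calls, 90.5% after thinning, 90.9% with at least 50 UMIs, 22.5% with no filter and 60.3% at 30 CPM.

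The cell cycle median of 2.12 was 1.41 and 0.92 with the osteogenic threshold at 0.5% and 0.1%, 0.29 after thinning, 1.00 in osteocalcin-led members and 0.80 without the 2 OTM-only sub-clusters. Each median is over the list genes measured under that alternative. After thinning, most of the cell cycle genes past 2-fold over all members were no longer measured. The adipogenic and chondrogenic median of -0.75 was 0.96 at 0.5% and -1.42 after thinning. The ligament and cementum median of -0.27 was 0.54 after thinning, and the inflammatory median of 0.86 was 0.16 in osteocalcin-led members. With the threshold at 0.1%, Bmp6 was at -0.20 and Igfbp3 at -1.19. In osteocalcin-led members St3gal3 was at 0.46, Tnc at -0.54, Fn1 at -0.49, Pth1r at -0.0025, Mgp at -1.80 and S100a4 at -0.21; without the 2 OTM-only sub-clusters Tnc was at -0.17, Fn1 at -0.24, Mgp at -1.66 and S100a4 at -0.77. The causes were not tested. Of 127 named genes past 2-fold, 127 kept their direction under TMM factors (median shift 0.061), and of 126 measured with equal weight per cell 126 kept direction and 98 stayed past 2-fold. Fewer did so elsewhere: of 90 measured in osteocalcin-led members 84 kept direction and 45 stayed past 2-fold (not Omd, Smpd3, Inhba or Col6a3, among others), of 107 without the 2 OTM-only sub-clusters 103 and 62, and of 52 after thinning 52 and 32.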
